A study of Mus musculus with 34 samples.

Results

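The circadian clock of the liver is a feedback loop of transcription factors, and its 10 core genes were examined here in genome-wide maps of HDAC3, PROX1 and HNF4α binding. The genes were taken by their known place in the loop: the activators *Arntl* (which encodes BMAL1), *Clock* and *Npas2*, the repressors *Per1*, *Per2*, *Per3*, *Cry1* and *Cry2*, and *Nr1d1* and *Nr1d2*, which encode REV-ERBα and REV-ERBβ. They are 10 of the 22367 protein-coding genes on the main chromosomes of the annotation used. All 10 were found in it. For each gene, peaks were collected whose centre lay between 50 kb before the transcription start site (TSS) and 2 kb beyond the end of the gene.

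Binding was measured by ChIP-seq in livers of male C57B/6 mice aged 10 weeks, collected at zeitgeber time 10, which is 10 h after lights on. HDAC3 and PROX1 were mapped in 3 libraries each from livers labelled control. HNF4α was mapped in 2 libraries from livers with floxed *Hnf4α* alleles, which per the study's methods received the control virus AAV8 TBG *Egfp*, in which the hepatocyte promoter TBG drives a fluorescent protein. HNF4α was therefore mapped in other animals than HDAC3 and PROX1. Each factor has 1 list of peaks called on pooled libraries, so there are no replicate values, the number of reads behind a peak is unknown, and no difference can be set against the spread between livers. Because whole liver was used, a site bound in some cells and a site bound weakly in all of them cannot be told apart. A single time of day was sampled, so the maps give no rhythm.

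A peak with the same coordinates in the HDAC3 and the PROX1 list is called co-bound, and the remaining peaks of these lists are HDAC3-only or PROX1-only. Of the listed peaks, 20039 were co-bound, 1208 HDAC3-only and 7384 PROX1-only. A peak was counted as carrying HNF4α when at least 50% of its 200 bp lay under an HNF4α peak, and a co-bound peak with HNF4α is called triply bound. The HNF4α list also holds a HOMER score per peak, whose scale the file does not state. It ran from 20.3 to 160.2 over 24253 peaks, with a median of 41.9.

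In the loop, BMAL1 pairs with CLOCK or its relative NPAS2 and activates genes through E-box sequences, among them those of the PER and CRY proteins, which then block the pair. REV-ERBα and REV-ERBβ close a second loop, since they repress *Arntl* by binding ROR elements, and they do so with the corepressor NCoR, which carries the histone deacetylase HDAC3. PROX1 is a homeobox factor and HNF4α a nuclear receptor that specifies hepatocytes.

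All 10 genes had HDAC3 bound in their windows, and all 10 had a co-bound peak. An HDAC3 peak was present in the windows of 40.5% of all protein-coding genes and a co-bound peak in those of 38.4%. The 10 windows held 33 co-bound peaks, 5 HDAC3-only peaks and 10 PROX1-only peaks. HDAC3-only peaks lay at 4 of the 10 genes, against 7.4% of all genes, namely *Arntl*, *Npas2*, *Per1* and *Nr1d1*. Of all genes with any HDAC3 peak, 18.3% had an HDAC3-only peak. PROX1-only peaks lay at 5 of the 10 genes, against 25.2% of all genes, namely *Per1*, *Per2*, *Cry1*, *Cry2* and *Nr1d1*. The windows also held 30 HNF4α peaks, with at least 1 at each gene, where 49.7% of all genes had one. A triply bound peak was found at 7 of the 10 genes, against 31.1% of all genes. Since genes silent in liver are among all genes, these percentages are a broad background. The clock windows were also longer, with a median of 94.2 kb against 67.4 kb over all genes, and a longer window collects more peaks.

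**Figure D1:**
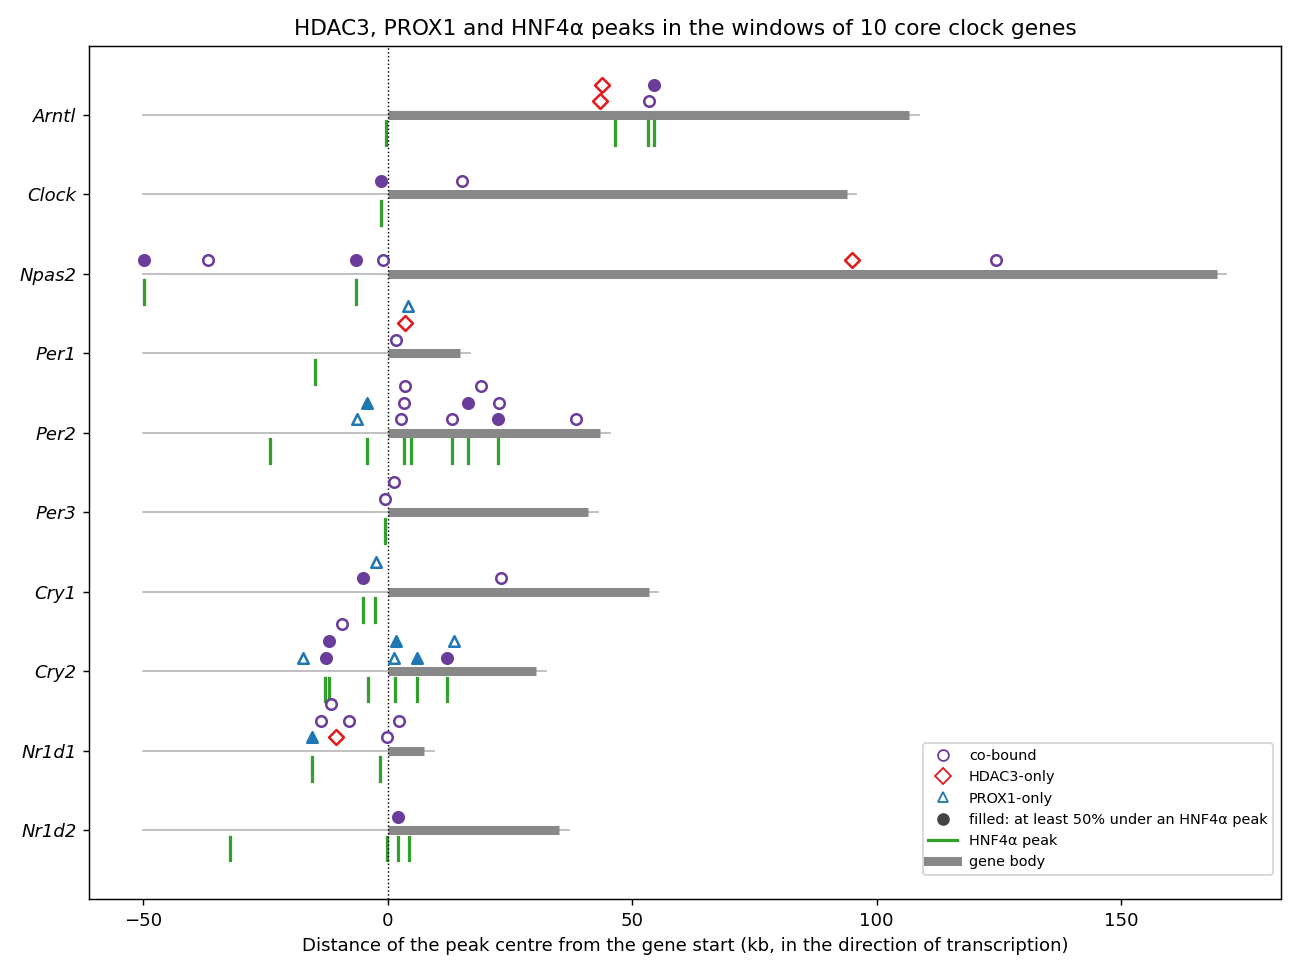
Position of each peak centre relative to the TSS (x axis, kb, in the direction of transcription) for the 10 core clock genes, with the gene body as a thick grey bar, the window as a thin line and HNF4α peaks as green ticks below it. Filled symbols are the 11 co-bound and 4 PROX1-only peaks with at least 50% under an HNF4α peak, and all 5 HDAC3-only diamonds are open. Symbols of peaks close together are stacked, and their height has no meaning.

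By role in the loop, the 3 activator genes had 9 co-bound peaks, of which 4 were triply bound, 3 HDAC3-only peaks and 0 PROX1-only peaks. The 5 repressor genes had 18 co-bound peaks, of which 6 were triply bound, 1 HDAC3-only peak and 9 PROX1-only peaks. The 2 REV-ERB genes had 6 co-bound peaks, of which 1 was triply bound, 1 HDAC3-only peak and 1 PROX1-only peak. These counts are small, and a long window collects more peaks than a short one.

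**Figure D2:**
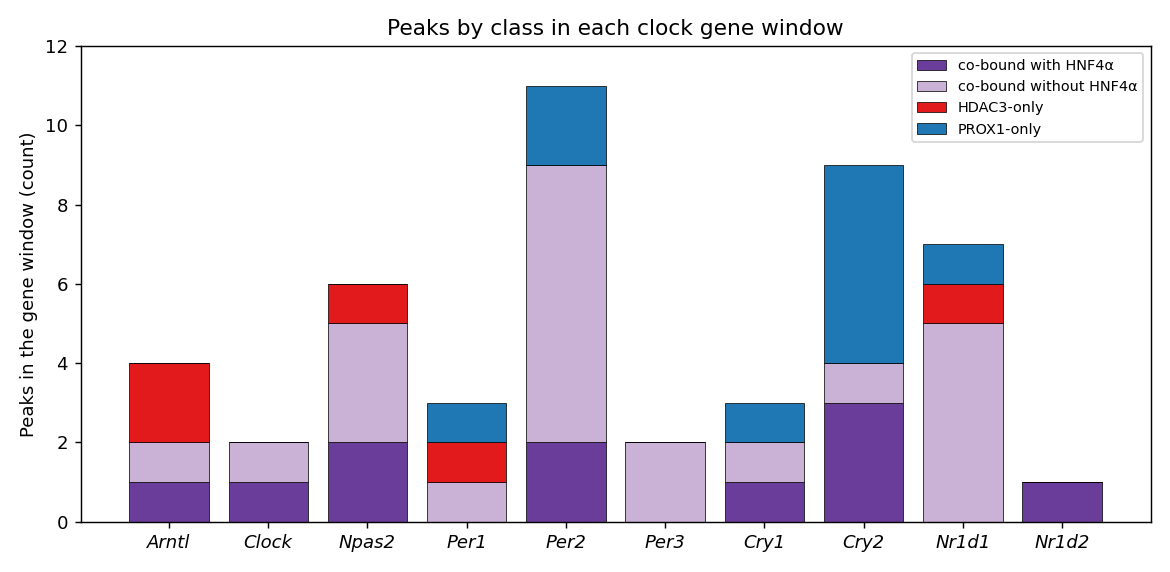
Number of peaks of each class (y axis, count) in the window of each core clock gene (x axis). *Per2* had 11 peaks and *Cry2* 9, 5 of them PROX1-only, whereas *Nr1d2* had 1.

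*Arntl*, on the forward strand of chromosome 7 from 120350979 to 120457636 (mm9), had 4 HDAC3 peaks, all in intron 2 and none near the TSS. An HDAC3-only pair was centred 43502 and 43831 bp downstream of the TSS, and a co-bound pair 53373 and 54429 bp downstream. Neither HDAC3-only peak touched an HNF4α peak. Of the co-bound pair, the first was covered by an HNF4α peak over 28.5% of its length, under the limit, and the second over 65.0%. The 4 HNF4α peaks of the window had scores of 30.2, 37.7, 43.3 and 43.8, of which that of 43.8 lay in intron 2, 46475 bp downstream of the TSS, with no HDAC3 or PROX1 peak on it. The peak with a score of 43.3 was centred 345 bp upstream of the TSS, where no HDAC3 or PROX1 peak was called within 1 kb. The HDAC3-only peak at 43502 bp held a ROR element and is shown because such elements are the known target of the REV-ERBs. In this and the following sequences, all read from the mm9 assembly 5′ to 3′ on the forward strand of the chromosome, capitals mark motif matches, and a match is a description of the letters only. The capitals here mark the ROR element with its AT-rich flank, which reads on the reverse strand and is centred 12 bp from the centre of the peak.
*Arntl* HDAC3-only peak, chr7:120394381-120394580: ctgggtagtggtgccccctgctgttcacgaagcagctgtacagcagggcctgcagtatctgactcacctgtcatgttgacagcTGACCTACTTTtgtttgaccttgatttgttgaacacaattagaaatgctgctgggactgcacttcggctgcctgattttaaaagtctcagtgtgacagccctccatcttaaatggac

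*Clock*, on the reverse strand of chromosome 5 from 76639992 to 76733817, had 2 co-bound peaks and no single peaks. The first was centred 1304 bp upstream of the TSS and was 72.5% covered by an HNF4α peak with a score of 33.9, the only HNF4α peak of the window. The second lay in intron 2, 15192 bp downstream, without HNF4α.

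*Npas2*, which encodes the partner of BMAL1 that can stand in for CLOCK, spans 39250576 to 39420079 on the forward strand of chromosome 1. Its window of 222 kb, the longest of the 10, held 5 co-bound peaks and 1 HDAC3-only peak. The co-bound peaks lay 49907, 36770, 6469 and 949 bp upstream of the TSS and 124378 bp downstream, in intron 7. Those at 49907 and 6469 bp upstream were triply bound, under HNF4α peaks with scores of 74.9 and 58.4. The farthest of them was just inside the 50 kb limit of the window. The co-bound peak 949 bp upstream did not touch an HNF4α peak. The HDAC3-only peak lay in intron 3, 94853 bp downstream. By gene starts, it is nearer to *Rpl31*, at 79267 bp, as is the co-bound peak in intron 7, at 49742 bp. Another annotated transcript of *Npas2* starts closer to both peaks than *Rpl31* does. Its start is 52971 bp from the HDAC3-only peak and 23446 bp from the co-bound one. The sequences show the HDAC3 peak nearest to the TSS and the HDAC3-only peak, which held a ROR element, and both also carry the longer consensus of ROR elements with an AT-rich flank. In the promoter peak, capitals mark a C/EBP motif and then the ROR consensus, and in the intronic peak likewise.
*Npas2* co-bound peak, chr1:39249527-39249726: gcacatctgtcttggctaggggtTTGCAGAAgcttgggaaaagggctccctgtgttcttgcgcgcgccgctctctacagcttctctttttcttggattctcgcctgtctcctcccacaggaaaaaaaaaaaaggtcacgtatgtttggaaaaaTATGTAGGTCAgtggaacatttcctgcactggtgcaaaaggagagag
*Npas2* HDAC3-only peak, chr1:39345329-39345528: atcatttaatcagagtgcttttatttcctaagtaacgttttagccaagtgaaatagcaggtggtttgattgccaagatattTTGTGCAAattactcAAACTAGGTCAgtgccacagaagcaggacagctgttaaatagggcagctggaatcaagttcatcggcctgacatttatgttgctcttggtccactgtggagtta

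*Per1*, on the forward strand of chromosome 11 from 68908719 to 68923462, had 1 peak of each class, all in intron sequence near the TSS. The co-bound peak was centred 1732 bp downstream of the TSS, the HDAC3-only peak 3428 bp and the PROX1-only peak 4217 bp. The HDAC3-only peak was 303 bp upstream of the start of another annotated transcript of *Per1*. None of the 3 touched an HNF4α peak. The only HNF4α peak of the window lay 14943 bp upstream, with a score of 35.8. Outside the window, a co-bound peak with HNF4α lay 2858 bp past its downstream end and one without it 4096 bp before its upstream end. None of the 7 motifs searched had an exact match in these 3 peaks.

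*Per2*, on the reverse strand of chromosome 1 from 93312561 to 93355907, had the most peaks of the 10 genes: 9 co-bound and 2 PROX1-only, with 7 HNF4α peaks. At least 9 co-bound peaks were found in the windows of 1.98% of protein-coding genes. All 9 co-bound peaks were inside the gene, 3 of them in intron 1 between 2708 and 3558 bp downstream of the TSS and the others spread from intron 4 to intron 20. Both PROX1-only peaks lay upstream, at 6345 and 4244 bp, and the nearer was 75.5% covered by an HNF4α peak with a score of 62.2. Of the 9 co-bound peaks, 2 were triply bound, at 16483 and 22533 bp downstream, and their HNF4α scores were 86.7 and 74.9. The HNF4α peak with the highest score of the 10 genes, 90.5, which exceeds or equals the scores of 93.5% of the list, lay in intron 4 and covered 48.0% of the co-bound peak at 13061 bp, so that this peak fell just under the limit. Another co-bound peak, at 3271 bp, was covered over 29.0% by an HNF4α peak with a score of 49.5. That HNF4α peak was 85 bp wide, too narrow to cover 50% of a 200 bp peak. Of the co-bound peaks, those at 22845 and 38541 bp are nearer to the start of *Hes6*. Just past the downstream end of the window lay 2 further co-bound peaks, 182 and 437 bp outside it, of which the nearer carried HNF4α. Both are closer to the start of *Hes6* than the peak at 38541 bp, which is 6751 bp from it. They are therefore far nearer to *Hes6* than to the TSS of *Per2*. The following sequences show the peak under the highest HNF4α score, which held no match to any of the 7 motifs, and the triply bound peak at 16483 bp, in which capitals mark a match to the HNF4 motif. The latter was chosen after the matches had been seen.
*Per2* co-bound peak, chr1:93342746-93342945: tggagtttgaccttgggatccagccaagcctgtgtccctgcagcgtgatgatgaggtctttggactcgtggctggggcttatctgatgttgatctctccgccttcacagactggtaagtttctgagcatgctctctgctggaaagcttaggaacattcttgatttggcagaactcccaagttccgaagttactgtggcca
*Per2* co-bound peak, chr1:93339324-93339523: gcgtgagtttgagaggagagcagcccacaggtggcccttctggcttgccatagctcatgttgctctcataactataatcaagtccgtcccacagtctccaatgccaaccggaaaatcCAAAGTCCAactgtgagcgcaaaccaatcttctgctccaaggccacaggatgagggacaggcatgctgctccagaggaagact

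*Per3*, on the reverse strand of chromosome 4 from 150377761 to 150418774, had 2 co-bound peaks at its start, 618 bp upstream and 1266 bp downstream of the TSS. Neither was triply bound. The only HNF4α peak of the window, with a score of 28.7, covered 28.5% of the upstream peak. The upstream peak is shown as the HDAC3 peak nearest to the TSS. Capitals mark a C/EBP motif and then a D-box, the element bound by the clock output factors DBP, TEF and HLF, both on the reverse strand.
*Per3* co-bound peak, chr4:150419292-150419491: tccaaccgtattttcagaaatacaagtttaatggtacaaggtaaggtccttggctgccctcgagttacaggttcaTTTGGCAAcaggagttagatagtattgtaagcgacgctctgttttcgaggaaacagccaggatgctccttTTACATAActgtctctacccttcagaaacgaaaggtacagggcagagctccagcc

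*Cry1*, on the reverse strand of chromosome 10 from 84594447 to 84647799, had 2 co-bound peaks and 1 PROX1-only peak. The co-bound peak 5090 bp upstream of the TSS was 75% covered by an HNF4α peak with a score of 57.5. The second co-bound peak lay in intron 1, 23129 bp downstream, and did not touch an HNF4α peak. The PROX1-only peak, 2494 bp upstream, carried no HNF4α by the 50% rule, and an HNF4α peak with a score of 28.7 lay beside it, 2682 bp upstream, without touching it. The intronic peak held 2 ROR elements, on opposite strands and on either side of its centre. It was chosen for display after the matches had been seen, and the capitals mark both elements with their AT-rich flank.
*Cry1* co-bound peak, chr10:84624570-84624769: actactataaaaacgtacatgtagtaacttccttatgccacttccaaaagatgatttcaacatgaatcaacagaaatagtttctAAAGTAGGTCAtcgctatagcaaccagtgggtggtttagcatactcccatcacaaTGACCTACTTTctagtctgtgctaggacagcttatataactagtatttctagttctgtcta

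*Cry2*, on the reverse strand of chromosome 2 from 92243803 to 92274200, was the gene with the most PROX1-only peaks, 5, beside 4 co-bound peaks. Of the co-bound peaks, 3 were triply bound, at 12733 and 11989 bp upstream of the TSS and 12105 bp downstream in intron 5, with HNF4α scores of 27.3, 40.1 and 41.9. The co-bound peak 9453 bp upstream carried no HNF4α. The PROX1-only peaks lay 17255 bp upstream and 1173, 1603, 5919 and 13480 bp downstream, and those at 1603 and 5919 bp carried HNF4α with scores of 74.0 and 38.6. The peak at 1603 bp was centred 48 bp upstream of the start of another annotated transcript of *Cry2*. The HDAC3 peak nearest to the annotated gene start was the one 9453 bp upstream. A PROX1-only peak within 1 kb of the annotated gene start was found at 0 of the 10 genes and at 1.92% of all genes.

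*Nr1d1*, on the reverse strand of chromosome 11 from 98629246 to 98636647, is the shortest of the 10 genes and had 5 co-bound, 1 HDAC3-only and 1 PROX1-only peak. This is 10.1 HDAC3 peaks per 100 kb of window, a density reached by 2.0% of protein-coding genes. The median over the 10 genes was 2.61. The co-bound peaks lay 179, 7929, 11700 and 13679 bp upstream of the TSS and 2206 bp downstream in intron 1, and the HDAC3-only peak 10594 bp upstream. None of these 6 touched an HNF4α peak. The PROX1-only peak, 15468 bp upstream, was 75.5% covered by an HNF4α peak with a score of 32.5. The other HNF4α peak of the window, with a score of 26.9, lay 1568 bp upstream, apart from all peaks of HDAC3 and PROX1. Of the 7 peaks, 4 are nearer to the start of *Msl1*, among them the HDAC3-only peak, and cannot be assigned to either gene from position alone. The following sequences show the peak nearest to the TSS, with a C/EBP motif in capitals, and, chosen after the matches had been seen, the intron 1 peak with an E-box and the HDAC3-only peak with the ROR consensus and then a cAMP response element (CRE), a target of signalling inputs to the clock.
*Nr1d1* co-bound peak, chr11:98636726-98636925: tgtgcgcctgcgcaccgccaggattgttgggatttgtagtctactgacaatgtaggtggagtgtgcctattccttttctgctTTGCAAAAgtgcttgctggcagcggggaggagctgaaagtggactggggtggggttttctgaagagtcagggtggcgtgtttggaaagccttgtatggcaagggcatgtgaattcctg
*Nr1d1* co-bound peak, chr11:98634341-98634540: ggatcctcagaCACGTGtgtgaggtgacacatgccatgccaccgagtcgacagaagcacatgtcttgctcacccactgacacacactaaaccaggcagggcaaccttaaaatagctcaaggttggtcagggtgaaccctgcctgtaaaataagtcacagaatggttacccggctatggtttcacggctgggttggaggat
*Nr1d1* HDAC3-only peak, chr11:98647141-98647340: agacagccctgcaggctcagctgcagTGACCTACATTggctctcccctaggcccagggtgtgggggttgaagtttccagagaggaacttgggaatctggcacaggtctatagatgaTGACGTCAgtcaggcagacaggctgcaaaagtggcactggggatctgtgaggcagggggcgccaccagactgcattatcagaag

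*Nr1d2*, on the reverse strand of chromosome 14 from 19036568 to 19071641, had 1 HDAC3 peak, co-bound, in intron 1 at 2184 bp downstream of the TSS. It was 73.0% covered by an HNF4α peak with a score of 43.8. The other 3 HNF4α peaks of the window touched neither factor, and their scores were 54.2, 24.5 and 20.7. The last was centred 107 bp upstream of the TSS. The REV-ERB genes thus differed in these lists, with 6 HDAC3 peaks and none triply bound at *Nr1d1* and 1 triply bound peak at *Nr1d2*. Of the 6, those 10594, 11700 and 13679 bp upstream are nearer to the start of *Msl1* and may not belong to *Nr1d1*.

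HDAC3 was called within 1 kb of the TSS at 3 of the 10 genes, *Npas2*, *Per3* and *Nr1d1*, against 5.95% of all genes. All 3 promoter peaks were co-bound and none was triply bound, though an HNF4α peak covered 28.5% of that of *Per3*. Counted from the start of any annotated transcript, 4 genes had such a peak. The gene added was *Per1*, with its HDAC3-only peak, and no share over all genes was computed for this rule. At 2 genes, *Arntl* and *Nr1d2*, an HNF4α peak but no HDAC3 or PROX1 peak lay within 1 kb of the TSS, as at 4.83% of all genes, a count chosen after the values had been seen. The peak at *Nr1d2* scored 20.7, close to the lowest score of the whole list, 20.3. Of the 33 co-bound peaks, 3 were at a promoter, 19 in an intron, 11 further upstream and 0 in an exon. Of the HDAC3-only peaks, 4 were in introns and 1 upstream, and of the PROX1-only peaks 5 were in introns and 5 upstream. The median distance from an HDAC3 peak to the nearest protein-coding TSS was 9.52 kb in the clock gene windows and 23.2 kb over all 21247 HDAC3 peaks. The clock peaks were selected by their closeness to a gene, so this difference is fixed in part by the choice. Another HDAC3 peak lay within 1 kb for 9 of the 38 HDAC3 peaks (23.7%), against 19.2% of all.

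HNF4α was found at a smaller share of the co-bound peaks of the core clock genes than of all co-bound peaks. Of the 33, 11 were triply bound, a share of 33.3% (95% Wilson interval 19.8 to 50.4), whereas 12284 of all 20039 were, or 61.3%. The interval of the clock genes lies below that value. No test was made, since the interval covers counting error alone and the peaks of a gene may depend on each other. Counted by any overlap, 15 of the 33 (45.5%) touched an HNF4α peak, against 67.2% of all. When 75% of a peak had to be covered, 15.2% of the 33 were triply bound, against 32.5% of all. The values nearest to the 50% limit were 48.0% at *Per2* and 65.0% at *Arntl*. Co-bound peaks of which none carried HNF4α were the case at *Per1*, *Per3* and *Nr1d1*, 3 of the 10 genes, and at 18.9% of all genes with a co-bound peak. Leaving out 1 gene at a time gave shares from 27.6% (without *Cry2*) to 39.3% (without *Nr1d1*). With peaks assigned to the nearest gene start within 100 kb, the share was 43.3% (13 of 30). It was 39.3% (11 of 28) with the peaks nearer to another gene start left out.

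The share that was HDAC3-only ran the other way. Of the 38 HDAC3 peaks, 5 were HDAC3-only, or 13.2% (95% Wilson interval 5.75 to 27.3), against 5.69% of all HDAC3 peaks, a value just below the lower end of the interval. Without *Arntl* the share was 8.82% and without *Per2* it was 17.2%. Leaving out the peaks nearer to the start of another gene kept 3 HDAC3-only peaks at 2 genes, both of *Arntl* and that of *Per1*. Such a peak remained at 3.61% of all genes. The share was then 9.68%, and it was 9.09% with peaks assigned to the nearest gene start within 100 kb. Both rules use gene starts, and the *Npas2* peak they leave out is nearer to another transcript start of *Npas2* than to *Rpl31*. None of the 5 HDAC3-only peaks carried HNF4α, which with 5 peaks allows a share of up to 43.4% by the Wilson interval, and 169 of all 1208 did. Of the 10 PROX1-only peaks, 4 carried HNF4α, or 40.0% (95% Wilson interval 16.8 to 68.7), against 36.7% of all PROX1-only peaks.

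**Figure D3:**
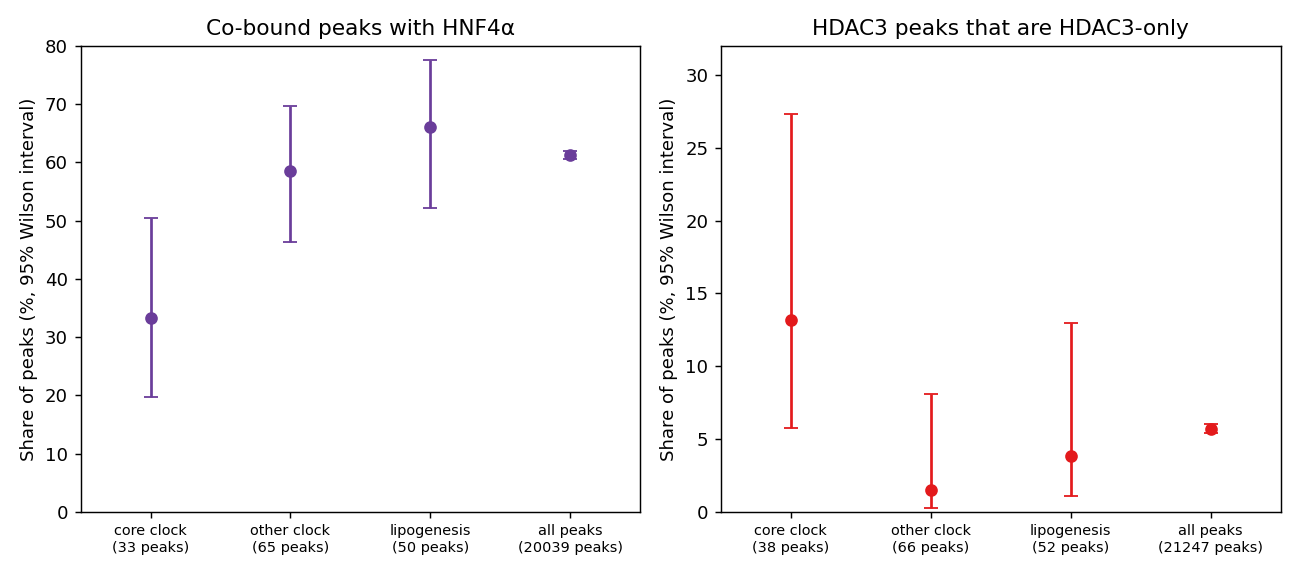
Left, share of co-bound peaks with HNF4α, and right, share of HDAC3 peaks that are HDAC3-only (y axes, %), for the windows of the core clock genes, of 14 other clock genes and of 11 lipogenesis genes, and for all peaks. Points are shares and bars 95% Wilson intervals over peaks: the core clock genes had 33.3% and 13.2%, all peaks 61.3% and 5.69%.

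The same shares were taken over other genes of the clock. A list of 14 further genes (the output factors *Dbp*, *Tef*, *Hlf* and *Nfil3*, the repressors *Bhlhe40*, *Bhlhe41* and *Gm129*, the ROR receptors *Rora* and *Rorb*, the kinases *Csnk1d* and *Csnk1e*, and the ubiquitin ligase components *Fbxl21*, *Btrc* and *Fbxw11*) had 65 co-bound peaks in their windows, of which 58.5% were triply bound (95% Wilson interval 46.3 to 69.6). *Rora* alone had 30 of the 65, and without it the share was 54.3% (38.2 to 69.5). Of their 66 HDAC3 peaks, 1 was HDAC3-only (1.52%). An HDAC3 peak was present at 10 of the 14. For 11 lipogenesis genes (*Fasn*, *Acaca*, *Acacb*, *Acly*, *Scd1*, *Elovl5*, *Elovl6*, *Srebf1*, *Me1*, *Thrsp* and *Mlxipl*), 66.0% of 50 co-bound peaks were triply bound (95% Wilson interval 52.2 to 77.6), and 2 of 52 HDAC3 peaks were HDAC3-only (3.85%). The intervals for the triply bound share overlap between the core and the other clock genes and do not overlap between the core clock and the lipogenesis genes. With 1 lipogenesis gene left out at a time, the share ran from 61.4% (46.6 to 74.3, without *Elovl5*) to 71.7% (without *Thrsp*), and the former interval does overlap. The core clock share was 39.3% without *Nr1d1*, and no interval was computed for it. The difference between the lists was not tested. The lipogenesis windows were also denser in HDAC3, with a median of 4.48 peaks per 100 kb against 2.61 in the core clock windows and 2.05 in those of the other clock genes.

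The HNF4α peaks of the core clock windows had a median score of 41.0, against 41.9 in the whole list. The 30 scores ran from 20.7 at *Nr1d2* to 90.5 at *Per2*. The median was 37.7 without *Per2*. Of the 30, 13 (43.3%) were covered over less than 50% of their length by a peak of HDAC3 or PROX1, against 33.7% of all HNF4α peaks, and 11 (36.7%) touched no peak of either, against 31.4%. *Nr1d2* had 3 of these 11, *Arntl* and *Per2* 2 each.

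**Figure D4:**
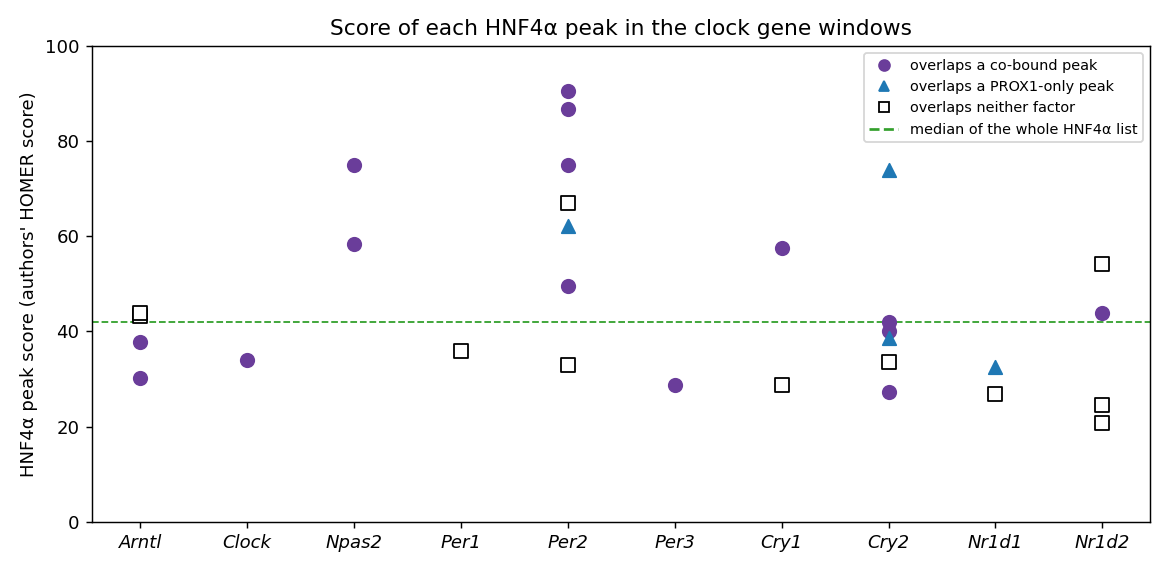
Score of each of the 30 HNF4α peaks (y axis, the authors' HOMER score) by core clock gene (x axis), with the class of HDAC3 or PROX1 peak it overlaps by at least 1 bp, and the median of the whole list, 41.9, as a dashed line. *Per2* holds the highest score, 90.5, and *Nr1d2* the lowest, 20.7.

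Sequence motifs of the clock were searched in the 200 bp of each HDAC3 peak, on both strands and without mismatches. The ROR element (ANTAGGTCA or ANTGGGTCA) was found in 5 of the 38 peaks (13.2%, 95% Wilson interval 5.75 to 27.3), against 3.81% of all HDAC3 peaks and 1.23% of windows 2 kb to either side of them. These 5 peaks lay at *Arntl*, *Npas2* and *Cry1*. They made up 2 of the 5 HDAC3-only peaks, where the share over all HDAC3-only peaks was 9.19%, and 3 of the 33 co-bound peaks, where it was 3.49%. With 1 mismatch allowed, 17 of the 38 peaks matched, against 38.8% of all. The DR2 element of REV-ERB pairs (GGTCA, 3 bases of any kind, GGTCA) was in 0 of the 38 and in 0.433% of all, and a ROR element can form part of it. With the 11-base ROR consensus, whose flank is A or T, which was added after the promoter sequence of *Npas2* had been seen, 6 of the 38 peaks matched (15.8%, 95% Wilson interval 7.44 to 30.4), against 1.27% of all HDAC3 peaks. They were the peaks at 43502 bp of *Arntl*, 949 bp upstream and 94853 bp downstream at *Npas2*, 5090 bp upstream and 23129 bp downstream at *Cry1* and 10594 bp upstream of *Nr1d1*. Of these, 3 were HDAC3-only, among 5 such peaks, while 3.73% of all HDAC3-only peaks matched. Because this search was added with matches in view, its share is a description of these peaks only.

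**Figure D5:**
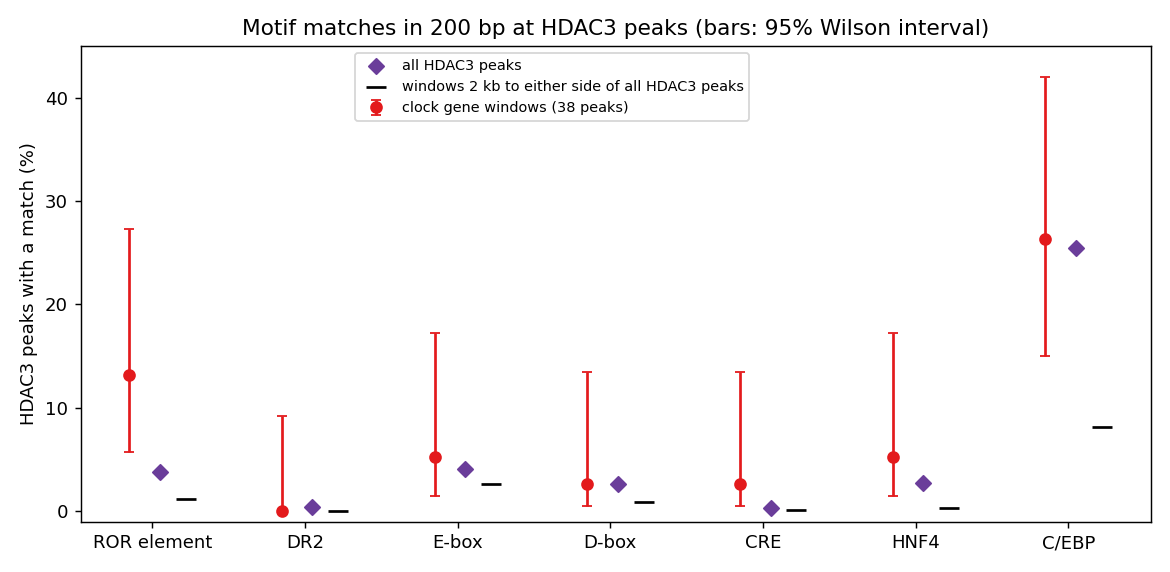
Share of HDAC3 peaks with an exact match to each motif in 200 bp (y axis, %), for the 38 peaks of the core clock windows (points with 95% Wilson intervals), all 21247 HDAC3 peaks (diamonds) and windows 2 kb to either side of all HDAC3 peaks (dashes). The ROR element was in 13.2%, 3.81% and 1.23% of these, and the C/EBP motif in 26.3%, 25.4% and 8.13%.

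The remaining clock motifs were each in at most 2 of the 38 peaks. The E-box CACGTG, the site of BMAL1 and CLOCK, was in 2 of the 38 peaks (5.26%), both at *Nr1d1*, against 4.12% of all HDAC3 peaks and 2.65% of the windows to either side. The D-box (TTATGTAA or TTACGTAA) was in 1 (2.63%), at *Per3*, against 2.67% and 0.880%. The CRE (TGACGTCA) was in 1 (2.63%), the HDAC3-only peak of *Nr1d1*, against 0.367% and 0.155%. The HNF4 motif (CAAAGTCCA) was in 2 (5.26%), at *Npas2* and *Per2*, against 2.72% and 0.320%. Both of these were triply bound, so that 2 of the 11 HDAC3 peaks with HNF4α held the motif and 0 of the 27 without it, while over all HDAC3 peaks the shares were 4.16% and 0.671%. The C/EBP motif (TTGCNNAA) was in 10 (26.3%), against 25.4% and 8.13%. An exact match to none of the 7 motifs was found in 20 of the 38 peaks (52.6%), against 64.2% of all. In the PROX1-only peaks of these genes, 0 of 10 held a ROR element, against 1.46% of all PROX1-only peaks.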

How the data were processed

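HDAC3, PROX1 and HNF4α ChIP-seq reads from mouse liver were aligned to mm9 with Bowtie 0.12.7, duplicates removed, libraries pooled per factor and peaks called with HOMER against IgG by the authors. Their limits on enrichment over input and on read rate, and for HNF4α a filter on knockout livers, decide which weak sites are listed. The deposited lists give positions, and for HNF4α a score per peak, the authors' HOMER score. The 3 lists cover 8 of the 34 libraries of the series, and the others were not analysed here. The 3 empty lines in each HDAC3 and PROX1 list were dropped. That co-bound peaks are identical in both lists comes from the authors' classification.

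Windows were taken from GENCODE M1 and sequences from NCBIM37, the assembly of mm9 (pysam 0.24.0, samtools 1.23.1). Introns are numbered in the transcript with the most exons. Wilson intervals (scipy 1.17.1) cover counting error only. The code was tested on simulated data, where 2000 of 2000 overlaps and 1400 of 1400 planted motifs were recovered.

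The members and lists were chosen with earlier results of these data known, and part of the list of other clock genes is not reported here. All 10 genes were to be named, and single peaks where HDAC3-only, within 1 kb of a start or under the highest HNF4α score of their gene. Other peaks were named after their values had been seen. Sequences were to be shown for the HDAC3 peak nearest to a start within 1 kb, HDAC3-only peaks with a ROR or DR2 element and the peak of the highest HNF4α score.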

Additional observations from a re-analysis of the deposited data

How the results depend on the processing

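The share of co-bound peaks with HNF4α was 15.2% (5 of 33) when 75% of the peak had to be covered and 18.2% (6 of 33) with only HNF4α peaks scoring above the median of the list, and the genes with a triply bound peak then numbered 3 and 4, against 22.3% and 25.1% of all genes. By the same rules 32.5% and 40.0% of all co-bound peaks carried HNF4α. HNF4α peaks narrower than 75% of 200 bp fail the first of these rules at any position. Assigning peaks to the nearest start within 100 kb, or leaving out peaks nearer to another gene start (added after seeing the data), left 3 HDAC3-only peaks at 2 genes, against 4.25% and 3.61% of all genes. Within 2.5 kb of the start, 6 genes had an HDAC3 peak, against 10.1% of all genes. In 100 bp, 0 peaks held an E-box and 0 a D-box. With 1 mismatch allowed, 17 of 38 HDAC3 peaks held a ROR element (38.8% of all), 3 a DR2 (4.12%), 17 an E-box (49.0%), 7 a D-box (23.7%), 3 a CRE (8.33%), 7 the HNF4 motif (20.3%) and 35 the C/EBP motif (89.4%). Of the values recomputed under an alternative, 64 kept within the counting interval or 1.5 times the count and 18 did not. The values with 1 gene left out, which reuse most of the same peaks, are all among the 64. No replicate could be left out. No paired analysis was possible because the lists hold no values per library. The read depth behind a peak is unknown, so that a site missing from a list may be bound below its limits.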

Other observations

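Empty lines divide the co-bound peaks of the lists into 3 consecutive blocks that carry no label. Of the 33 co-bound peaks of the core clock genes, 25 (75.8%) stood in the first block, 0 in the second and 8 (24.2%) in the third, where all co-bound peaks were divided as 78.3%, 12.3% and 9.43%. The 8 peaks of the third block lay at *Arntl*, *Clock*, *Cry1*, *Npas2*, *Nr1d1* and *Per3*. Both co-bound peaks of *Arntl* were among them, as were the promoter peaks of *Npas2* and *Per3* and the intronic peak of *Cry1* with 2 ROR elements. Of the clock peaks of the first block, 10 of 25 carried HNF4α (40.0%), against 66.4% of all peaks of that block, and of those of the third block 1 of 8 (12.5%), against 32.6%.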
